A study of Mus musculus with 6 samples.

Results

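The genes described here build the sarcomere, the contractile unit of striated muscle, and were measured in whole hearts of mouse embryos at embryonic day 13.5. The list held 41 genes: isoforms typical of heart muscle, isoforms typical of skeletal or fetal muscle, and genes shared by striated muscles. Members were found by their symbols, which the deposited comparison table pairs with the gene identifiers of the deposited count table. A symbol matched for 40 of the 41, among 45792 gene rows, with 15 cardiac isoforms, 14 skeletal and fetal isoforms and 11 shared genes. Tnnc2, fast skeletal troponin C, had no symbol in that table. Its identifier, ENSMUSG00000017300.9, was listed at 0 counts in all 6 hearts, and 592 of its 800 exon bases (74.0%) overlap Ube2c on the opposite strand in GENCODE vM21.

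One group held 3 hearts labelled wild-type and the other 3 hearts labelled Tie2Cre INO80 flox/flox, each from a single embryo. The labels give the strain of all as C57BL/6, whereas the paper describes its transgenic mice as of mixed background. The paper also states that embryos were of both sexes and not genotyped for sex. The Tie2 promoter drives the Cre recombinase in endothelial cells, the endocardium among them, and in blood cells of the same origin, so that Ino80, the ATPase of a chromatin remodeller, was to be lost there and not in cardiomyocytes, the cells that make the sarcomere. The study counts embryos of every other genotype as controls, so alleles carried by the control embryos may vary. Ino80 counts over the whole gene did not separate the groups, at 31.5 ± 1.26 CPM (SD, n = 3) in controls and 34.0 ± 2.35 CPM (SD, n = 3) in mutants. These counts are no test of the loss, since only part of the gene is floxed and cells outside the Tie2 lineage keep it. In endothelial cells isolated from such mutant hearts, the paper reports no detectable Ino80 mRNA. The hearts are named by their labels, as control-labelled and mutant-labelled. CPM stands for counts per M counts of a library, scaled for composition by TMM.

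In a sarcomere, thick filaments of myosin pull on thin filaments of actin, and troponin and tropomyosin on the thin filament let calcium start the contraction. Titin, the Z-disc proteins and the M-band proteins hold both filament systems in register. Heart and skeletal muscle use different isoforms of most of these proteins, and the embryonic heart also makes isoforms that it later gives up, such as slow skeletal troponin I. Atrial and ventricular muscle differ in their myosin light chains, and in the mouse embryo Myh7 marks the ventricles and Myh6 mainly the atria.

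The stretches before the start sites of 6 members are shown because these genes are among those with the clearest differences described below (Myl7 and Tnnt1 higher, Ckm and Myoz2 lower), or because, as with the skeletal and cardiac actins, they form an isoform pair. Each is the 150 bases upstream of the transcript start in RefSeq, on GRCm38.p6, written 5′ to 3′ on the gene's strand. Capitals mark a CArG box, the binding sequence of serum response factor, a MEF2 box or the letters TATAAA, on either strand. Myl7, atrial regulatory light chain, lies at chr11:5898783-5898932 on the minus strand, Tnnt1, slow skeletal troponin T, at chr7:4515976-4516125 on the minus strand, and Ckm, muscle creatine kinase, at chr7:19410944-19411093 on the plus strand. Myoz2, a Z-disc protein, lies at chr3:123034988-123035137, Acta1, skeletal actin, at chr8:123894776-123894925 and Actc1, cardiac actin, at chr2:114052876-114053025, all on the minus strand.
Myl7: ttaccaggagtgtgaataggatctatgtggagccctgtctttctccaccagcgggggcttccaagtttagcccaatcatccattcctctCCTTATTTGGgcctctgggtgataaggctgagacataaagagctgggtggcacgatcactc
Tnnt1: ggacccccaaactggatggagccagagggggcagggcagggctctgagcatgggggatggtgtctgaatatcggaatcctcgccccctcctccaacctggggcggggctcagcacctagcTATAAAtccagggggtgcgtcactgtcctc
Ckm: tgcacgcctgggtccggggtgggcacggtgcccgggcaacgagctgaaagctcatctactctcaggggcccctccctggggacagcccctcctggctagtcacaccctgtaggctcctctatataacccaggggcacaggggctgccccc
Myoz2: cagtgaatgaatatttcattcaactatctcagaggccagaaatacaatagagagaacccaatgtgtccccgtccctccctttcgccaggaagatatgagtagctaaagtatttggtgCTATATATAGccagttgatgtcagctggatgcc
Acta1: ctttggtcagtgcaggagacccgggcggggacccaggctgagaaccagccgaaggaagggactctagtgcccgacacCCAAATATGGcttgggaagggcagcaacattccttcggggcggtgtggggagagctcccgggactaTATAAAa
Actc1: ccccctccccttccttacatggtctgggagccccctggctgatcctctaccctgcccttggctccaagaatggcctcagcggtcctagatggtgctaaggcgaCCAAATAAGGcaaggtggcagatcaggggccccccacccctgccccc

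Positions were counted from the RefSeq transcript start and hold for that start only. The CArG box of Myl7 began at position -61, those of Acta1 and Actc1 at -73 and -47. The MEF2 box of Myoz2 began at -33 and the TATAAA of Tnnt1 at -30. The TATAAA of Acta1 began at -7 and that of Actc1 at 33, beyond the stretch shown. RefSeq windows of 300 bases, 250 before and 50 after a start, were given for 34 of the 41 members, 45 windows in all. A CArG box was in 8 of the 45 (17.8%) and in 1.63% of all 32851 windows of that length, and a MEF2 box in 5 (11.1%) and in 1.86%. The letters TATAAA were in 20.0% of the members' windows and 13.6% of all windows, CATTCC, the MCAT sequence read by TEAD factors, in 26.7% and 14.7%, and GATAA, part of the site of GATA factors, in 31.1% and 25.4%. In the Myh8 window the MEF2 box and TATAAA shared bases. A CArG box was in 1 of 6 windows of members higher at an unadjusted p under 0.05, in 2 of 11 windows of those lower and in 5 of 26 windows of the rest, and the 2 windows of Ldb3 hold the same one. These matches describe letters in the windows only.

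The 6 libraries held between 28948836 and 89675692 counts, and the members took 3.98% to 4.60% of the counts of a control-labelled heart and 4.002% to 4.24% of those of a mutant-labelled heart. Levels of different genes were compared as RPKM, CPM per kb of the union of a gene's exons in GENCODE vM21, a length that understates genes with long exons seldom used. Among 17125 genes tested with edgeR's quasi-likelihood test, 0% passed an adjusted p of 0.05, and no member did. The smallest adjusted p of any gene was 0.053, and 1624 genes were higher at an unadjusted p under 0.05 and 1709 lower. With DESeq2, the tool of the study, run here in version 1.42.0, 443 were higher and 570 lower past an adjusted p of 0.05. The paper reports fewer genes in each direction, and the version it used is not given. The p-values rest on the spread between 3 hearts a group, with a common biological coefficient of variation of 0.153.

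Cardiac isoforms led the levels per length. In control-labelled hearts the cardiac isoforms ranged from 31.4 to 4889 RPKM with a median of 447, the shared genes from 0.453 to 291 with a median of 71.5, and the skeletal and fetal isoforms from 0.0449 to 504 with a median of 12.3. Actc1 stood first, at 4889 ± 405 RPKM (SD, n = 3), followed by the ventricular light chains Myl2 and Myl3 at 2362 ± 230 and 1446 ± 234 RPKM (SD, n = 3 each) and by Tnnc1, which encodes troponin C of heart and slow muscle, at 1016 ± 135 RPKM (SD, n = 3). Tnni1 was the one skeletal or fetal isoform among the 10 highest, in seventh place at 504 ± 27.1 RPKM (SD, n = 3), next to Tnnt2 at 546 ± 64.6 and Mybpc3 at 500 ± 40.4 RPKM (SD, n = 3 each), and these neighbours differed by less than the larger of their SDs. At the other end Myh3, embryonic skeletal myosin, had 2, 7 and 17 reads in control-labelled and 9, 10 and 29 in mutant-labelled hearts and failed the filter on low counts, so 39 members were tested.

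**Figure D1:**
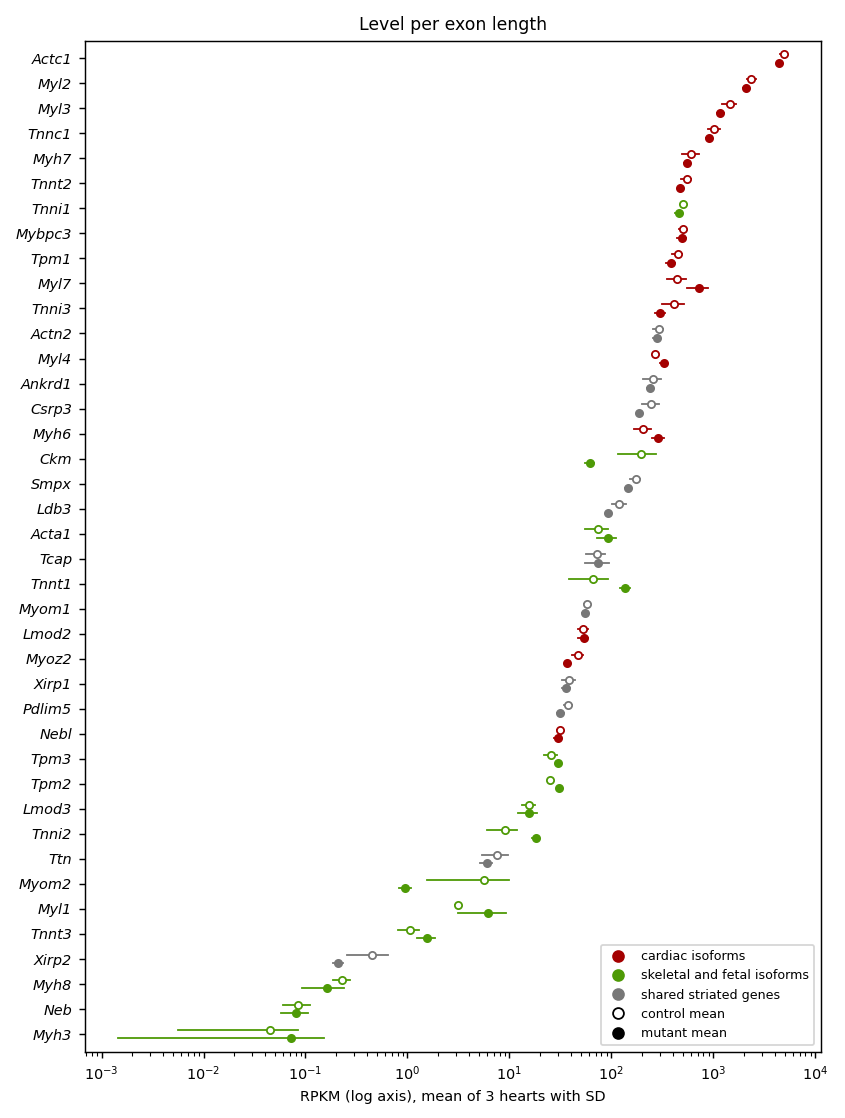
Level of each of the 40 members with a symbol row, as RPKM on a log axis (mean of 3 hearts, bars SD; open points control-labelled, filled points mutant-labelled; the lower bar of Myh3 in mutant-labelled hearts would pass below 0 and is cut short). Actc1 is highest at 4889 RPKM in control-labelled hearts and Myh3 lowest at 0.0449, and most skeletal and fetal isoforms lie in the lower part, with Tnni1 as the exception near the top.

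The members had values on both sides of the controls. Of the 39 tested, 12 were higher and 27 lower in mutant-labelled hearts, with a median log2 fold change of -0.11 against -0.0017 over all tested genes. In bulk RNA, fewer cells of a type and less RNA per cell cannot be told apart, here and in all values below. At an unadjusted p under 0.05, 7 members were higher (17.9%, where 9.48% of all tested genes were) and 9 lower (23.1%, where 9.98% were). At an adjusted p under 0.1, edgeR called Tnni2 and Tpm2 higher and Ckm and Myom2 lower, which is 5.13% of the members in each direction beside 1.14% of all genes higher and 1.25% lower. Every mutant-labelled heart lay above every control-labelled heart for 8 members (20.5%, beside 14.3% of all tested genes) and below for 6 (15.4%, beside 12.8%). DESeq2 called 7 members higher at an adjusted p under 0.05 (2.67% of its tested genes were) and 4 lower (3.43% were). The 7 were Myh6, Myl1, Myl4, Myl7, Tnnt1, Tnni2 and Tpm2, and the 4 were Myom2, Myoz2, Xirp2 and Ckm.

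The 3 lists did not share one direction. Of the 15 cardiac isoforms 4 were higher and 11 lower (median log2 fold change -0.14). Of the 11 shared genes 1 was higher and 10 lower (median -0.24). Of the 13 members tested from the skeletal and fetal list, 7 were higher and 6 lower (median 0.22). They held both the most positive and the most negative fold changes of all members. The most negative belonged to Myom2 (-2.56), also a myomesin of mature heart muscle, and to Ckm (-1.67). Ckm stood at 196 RPKM in control-labelled hearts, above the cardiac isoforms Lmod2, Myoz2 and Nebl. These differences between lists were not tested.

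**Figure D2:**
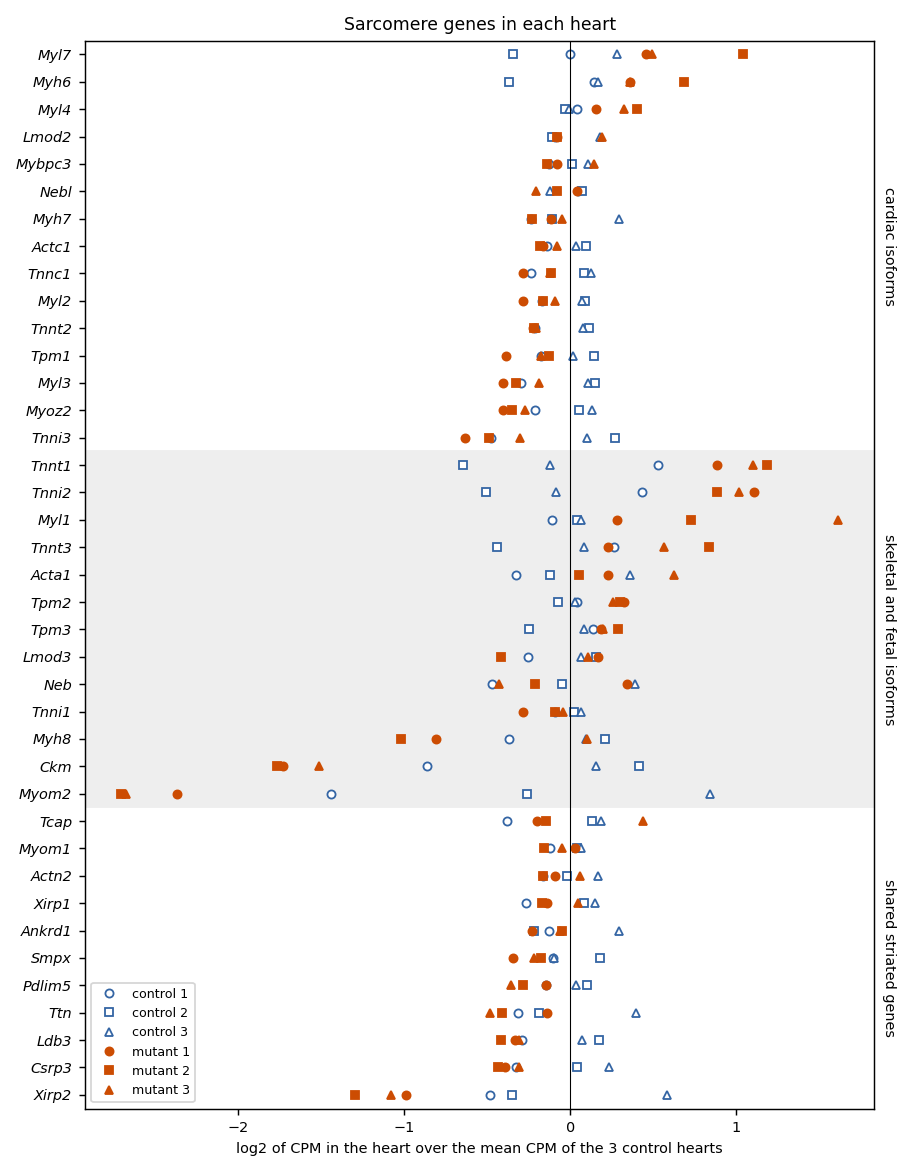
CPM of the 39 tested members in each heart, as log2 of the ratio to the mean of the 3 control-labelled hearts (open blue, control-labelled; filled orange, mutant-labelled; the shape gives the replicate number). Mutant-labelled hearts lie to the right for Tnnt1, Tnni2 and Myl1 and far to the left for Ckm and Myom2, while for most cardiac isoforms they lie among or just below the control-labelled hearts.

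Among the myosin heavy chains, the motors of the thick filament, the atrial isoform was higher in mutant-labelled hearts and the ventricular one was not apart. Myh6 (chromosome 14, 54941921 to 54966927, GRCm38) was at 1527, 1069 and 1550 CPM among control-labelled hearts and at 1772, 2227 and 1778 CPM among mutant-labelled hearts. No mutant-labelled heart was below a control, with a log2 fold change of 0.48 (SE 0.16, adjusted p = 0.18 from edgeR and 0.038 from DESeq2). Myh7 was at 4449, 4858 and 6430 CPM among control-labelled hearts and at 4842, 4466 and 5072 CPM among mutant-labelled hearts. Those groups overlapped, the log2 fold change was -0.13 (95% interval -0.47 to 0.21), and it was 0.043 without control replicate 3, the highest heart. Myh6 and Myh7 are neighbours with 936 identical stretches of 76 bases, the read length, in their transcripts (13.6% of those of Myh6 and 10.5% of those of Myh7), so reads there could not be assigned to one gene with certainty.

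The other heavy chains were traces beside these. Myh8, perinatal skeletal myosin, ran from 1.34 to 3.13 CPM over the 6 hearts with overlapping groups, and Myh3 was at 0.0525, 0.238 and 0.524 CPM among control-labelled hearts and at 0.0973, 0.235 and 0.991 CPM among mutant-labelled hearts. Mybpc3, cardiac myosin binding protein C, which tethers the heads of the thick filament, ranged from 1885 to 2297 CPM and had a log2 fold change of -0.021 (95% interval -0.28 to 0.23).

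The myosin light chains sit on the neck of the heavy chain, and those of atrial type were higher in mutant-labelled hearts. Myl7 (chromosome 11, 5896637 to 5898782) was at 262, 207 and 319 CPM among control-labelled hearts and at 360, 541 and 370 CPM among mutant-labelled hearts. Myl4, the atrial essential light chain, which fetal ventricles and fetal skeletal muscle also make (chromosome 11, 104550663 to 104595753), was at 1265, 1202 and 1224 CPM and at 1372, 1629 and 1539 CPM. For both genes every mutant-labelled heart lay above every control-labelled heart, by 1.61-fold for Myl7 (log2 fold change 0.69, SE 0.20, adjusted p = 0.14 from edgeR, 0.0069 from DESeq2) and 1.23-fold for Myl4 (log2 fold change 0.30, SE 0.094, adjusted p = 0.16 from edgeR, 0.029 from DESeq2).

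The ventricular light chains had values on the other side of the controls. Myl2, the ventricular regulatory light chain, was at 4089, 4899 and 4831 CPM among control-labelled hearts and at 3786, 4116 and 4318 CPM among mutant-labelled hearts. Myl3, the ventricular and slow muscle essential light chain, was at 2405, 3273 and 3191 CPM and at 2232, 2355 and 2599 CPM. In both, control replicate 1 was among the mutant-labelled hearts and the other controls above them, and the log2 fold changes were -0.18 (95% interval -0.43 to 0.074) for Myl2 and -0.30 (95% interval -0.61 to 0.0075) for Myl3. Myl1, the fast skeletal essential light chain, was at 5.99, 6.64 and 6.76 CPM and at 7.85, 10.7 and 19.8 CPM. The control-labelled hearts were close together, the mutant-labelled hearts were higher and spread widely, and the log2 fold change was 0.97 (SE 0.31, adjusted p = 0.16 from edgeR, 0.014 from DESeq2). Myl1 shares 164 stretches of read length with its pseudogene Mylf-ps, 7.93% of its own.

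Troponin T binds the troponin complex to tropomyosin. Tnnt1 (chromosome 7, 4504570 to 4516382) was at 208, 92.3 and 133 CPM among control-labelled hearts and at 267, 329 and 309 CPM among mutant-labelled hearts. All mutant-labelled hearts were above all control-labelled hearts, by 2.09-fold (log2 fold change 1.06, SE 0.26, adjusted p = 0.11 from edgeR, 0.042 from DESeq2). Tnnt2, the cardiac form, was at 3655, 4572 and 4463 CPM and at 3616, 3630 and 3665 CPM. The mutant-labelled hearts were almost level and control replicate 1 lay among them, with a log2 fold change of -0.22 (95% interval -0.47 to 0.034). Tnnt3, the fast skeletal form, was at 1.997, 1.23 and 1.76 CPM and at 1.95, 2.96 and 2.46 CPM, from 36 to 180 reads a heart, and the groups overlapped.

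Troponin I holds the thin filament in its resting state. Tnni2, the fast skeletal form (chromosome 7, 142441808 to 142444410), was at 18.2, 9.50 and 12.7 CPM among control-labelled hearts and at 29.1, 24.9 and 27.3 CPM among mutant-labelled hearts. The groups did not overlap and differed by 2.01-fold (log2 fold change 1.004, SE 0.21, adjusted p = 0.085 from edgeR, 0.00012 from DESeq2). Tnni3, the form of the adult heart (chromosome 7, 4518305 to 4524229), was at 618, 1035 and 922 CPM and at 553, 612 and 696 CPM. Control replicate 1 lay inside the mutant-labelled range and the other controls above it, with a log2 fold change of -0.47 (95% interval -0.89 to -0.045, adjusted p = 0.22 from edgeR, 0.075 from DESeq2). Tnni1, the slow skeletal form that the fetal heart uses, was at 1706, 1842 and 1896 CPM and at 1489, 1703 and 1758 CPM, overlapping, with a log2 fold change of -0.14 (95% interval -0.36 to 0.090). Tnnc1 was at 897, 1120 and 1156 CPM and at 870, 978 and 972 CPM, overlapping as well (log2 fold change -0.17).

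Tropomyosin lies along the actin filament and covers its myosin sites. Tpm2, the beta form typical of slow and fetal skeletal muscle (chromosome 4, 43514711 to 43523765), was at 74.1, 68.5 and 73.6 CPM among control-labelled hearts and at 90.4, 88.6 and 86.0 CPM among mutant-labelled hearts. Both groups were tight and did not overlap, and the log2 fold change of 0.29 had the smallest SE of all members, 0.065 (adjusted p = 0.092 from edgeR, 0.021 from DESeq2). Tpm1, the alpha form of the heart, was at 2560, 3197 and 2931 CPM and at 2215, 2652 and 2568 CPM, with overlapping groups and a log2 fold change of -0.22. Tpm3, the slow skeletal and non-muscle gene, was at 170, 130 and 164 CPM and at 176, 189 and 178 CPM. Its groups did not overlap (log2 fold change 0.23, adjusted p = 0.28 from edgeR, 0.29 from DESeq2), but 19.0% of its read-length stretches are identical in Tpm3-rs7, and smooth muscle and other cells also make Tpm2 and Tpm3.

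Of the sarcomeric actins, Actc1 was at 7181, 8451 and 8097 CPM among control-labelled hearts and at 7059, 6962 and 7499 CPM among mutant-labelled hearts. Acta1 was at 90.4, 104 and 145 CPM and at 133, 117 and 175 CPM. The groups overlapped for both, with log2 fold changes of -0.14 (95% interval -0.38 to 0.096) and 0.32 (95% interval -0.13 to 0.78). At the ends of the thin filament, Lmod2, the cardiac leiomodin that lengthens it, was at 98.0, 96.6 and 118 CPM and at 98.6, 98.8 and 119 CPM, and Lmod3, its skeletal relative, at 29.1, 38.6 and 36.2 CPM and at 38.9, 26.0 and 37.4 CPM. Neither differed beyond its spread, with 95% intervals of -0.23 to 0.26 and of -0.41 to 0.36 on the log2 scale. Nebl, the cardiac nebulette of the Z-disc, was at 495, 503 and 440 CPM and at 494, 454 and 415 CPM, and Neb, the giant nebulin of skeletal thin filaments, at 1.63, 2.18 and 2.96 CPM and at 2.87, 1.95 and 1.68 CPM, again with overlapping groups.

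The lowest values in mutant-labelled hearts relative to controls belonged to an energy enzyme and an M-band protein. Ckm (chromosome 7, 19404776 to 19422841), the muscle creatine kinase that regenerates ATP at the M-band, was at 313, 761 and 635 CPM among control-labelled hearts and at 172, 167 and 200 CPM among mutant-labelled hearts. The controls were 3.18-fold higher, with a log2 fold change of -1.67 (SE 0.28, adjusted p = 0.076 from edgeR, 0.00020 from DESeq2). Myom2, the myomesin of fast skeletal and mature heart muscle (chromosome 8, 15057653 to 15133541), was at 18.5, 42.0 and 90.2 CPM and at 9.74, 7.69 and 7.86 CPM. The control-labelled hearts were spread over almost the whole range, all above the tightly grouped mutant-labelled hearts, and were 5.92-fold higher on the fitted scale (log2 fold change -2.56, SE 0.50, adjusted p = 0.083 from edgeR, 0.0019 from DESeq2). Without control replicate 3, the highest heart, the log2 fold change was -1.83. Myom1, the myomesin found in all striated muscle, was at 557, 624 and 635 CPM and at 618, 543 and 585 CPM, and its log2 fold change was -0.056 (95% interval -0.26 to 0.15). Of the exon bases of Ckm, 15.5% lie opposite those of A930016O22Rik, and the use of strand in counting is not given in the sources used here.

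The Z-disc anchors thin filaments of neighbouring sarcomeres, and several of the genes shared by cardiac and skeletal muscle encode proteins there. Of the 11 shared genes, 5 were lower (45.5%, beside 9.98% of all tested genes) and 0 higher at an unadjusted p under 0.05, and none passed adjustment in edgeR. Myoz2, calsarcin, a cardiac isoform that binds calcineurin at the Z-disc, was at 138, 166 and 176 CPM among control-labelled hearts and at 121, 126 and 132 CPM among mutant-labelled hearts (log2 fold change -0.34, SE 0.097, adjusted p = 0.14 from edgeR, 0.038 from DESeq2). Ldb3, or Cypher, was at 598, 825 and 769 CPM and at 579, 547 and 590 CPM (log2 fold change -0.35, adjusted p = 0.19 from edgeR). In both genes the groups did not overlap, although control replicate 1 was close to the mutant-labelled hearts. Csrp3, the muscle LIM protein, was at 522, 672 and 769 CPM and at 498, 484 and 529 CPM (log2 fold change -0.38, adjusted p = 0.20 from edgeR). Pdlim5 was at 304, 361 and 344 CPM and at 304, 277 and 263 CPM (log2 fold change -0.26, adjusted p = 0.20 from edgeR). Each of those 2 had 1 mutant-labelled heart above the lowest control.

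Smpx, a small protein of the costamere, was at 366, 446 and 368 CPM among control-labelled hearts and at 310, 349 and 338 CPM among mutant-labelled hearts, with no overlap (log2 fold change -0.24, adjusted p = 0.24 from edgeR). Xirp2, an actin-binding repeat protein of the intercalated disc, was at 3.89, 4.26 and 8.15 CPM and at 2.74, 2.21 and 2.56 CPM. All mutant-labelled hearts were lower (log2 fold change -1.11, SE 0.29, adjusted p = 0.12 from edgeR, 0.0067 from DESeq2), and the log2 fold change was -0.70 without control replicate 3, the highest heart. The remaining shared genes had overlapping groups. They were Actn2, the actinin that crosslinks actin at the Z-disc, Ttn, the spring that spans the sarcomere from Z-disc to M-band, Tcap, which caps titin, Xirp1 and Ankrd1, with log2 fold changes between -0.34 (Ttn) and 0.057 (Tcap). Ttn was at 707, 773 and 1159 CPM and at 800, 661 and 630 CPM, and without control replicate 3 the log2 fold changes of Actn2 and Ankrd1 turned to 0.028 and 0.060.

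**Figure D3:**
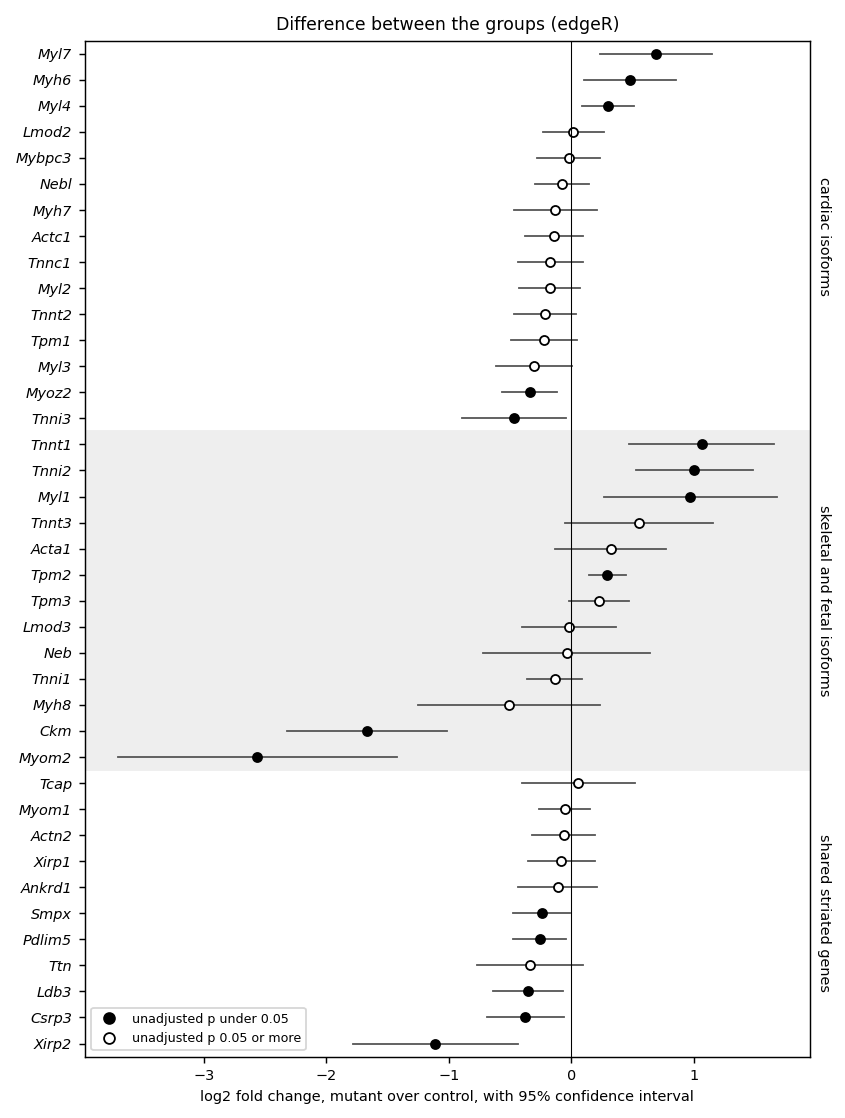
Log2 fold change of each tested member, mutant-labelled over control-labelled, with its 95% confidence interval from edgeR (filled points, unadjusted p under 0.05). The skeletal and fetal isoforms span from 1.06 (Tnnt1) to -2.56 (Myom2), and most cardiac and shared genes lie between -0.5 and 0.

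The isoform comparisons were made inside each heart, as the log2 ratio of both members of a pair (CPM + 1), so that the amount of muscle RNA in a heart cancels as far as both isoforms come from the same cells. Of 15 pairs, 14 were compared, since Tnnc2 had no symbol in the deposited comparison table. The mutant-labelled hearts were above every control in 4 pairs and below them in 4, and overlapped in 6. Each of the 8 had p = 0.1, the smallest an exact two-sided permutation test of 3 against 3 can give. The adjusted p over the 14 pairs by the same exact test was 0.175, so none could pass 0.05. Of single tested genes, 14.3% lay above every control and 12.8% below, and the share among pairs of other genes was not tested. The pairs reuse the members described above, so their counts add no separate evidence.

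Of the skeletal against cardiac pairs, 4 lay higher in mutant-labelled hearts. Tnni2/Tnni3 was at -5.01, -6.62 and -6.07 among control-labelled hearts and at -4.20, -4.56 and -4.62 in mutant-labelled hearts, a difference of 1.44. Tnnt1/Tnnt2 was at -4.13, -5.62 and -5.06 and at -3.76, -3.46 and -3.56, a difference of 1.34. Myl1/Myl3 differed by 1.09 and Tpm2/Tpm1 by 0.51. In these pairs control replicate 1 was the control-labelled heart closest to the mutant-labelled hearts, and per length the mean of the skeletal isoform stayed below that of its cardiac partner in both groups. Myom2/Myom1 is not a pair of that kind, since mature heart muscle also makes Myom2 and all striated muscle makes Myom1. Its ratio was lower in mutant-labelled hearts, from -4.84, -3.86 and -2.80 to -5.85, -5.97 and -6.05, a difference of -2.12.

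The other pairs overlapped between the groups. They were Acta1/Actc1 (difference 0.47), Tnnt3/Tnnt2 (0.59), Tnni1/Tnni3 (0.30), Myh3/Myh7 (0.26), Neb/Nebl (0.039) and Lmod3/Lmod2 (-0.050), with exact two-sided permutation p-values between 0.2 and 0.9. Tnni1/Tnni3, the pair whose balance turns from the slow skeletal to the cardiac form as the heart matures, was at 1.46, 0.83 and 1.04 among control-labelled hearts and at 1.43, 1.48 and 1.34 in mutant-labelled hearts. Per length, Tnni1 was at 504 ± 27.1 and Tnni3 at 416 ± 105 RPKM in control-labelled hearts, and at 458 ± 39.5 and 301 ± 34.8 RPKM in mutant-labelled hearts (SD, n = 3 each). Myh3 was so low that its ratio rests mainly on the 1 added to each CPM. The added 1 also weighs on the ratios with Tnnt3, at 1.23 to 2.96 CPM, and Neb, at 1.63 to 2.96 CPM.

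**Figure D4:**
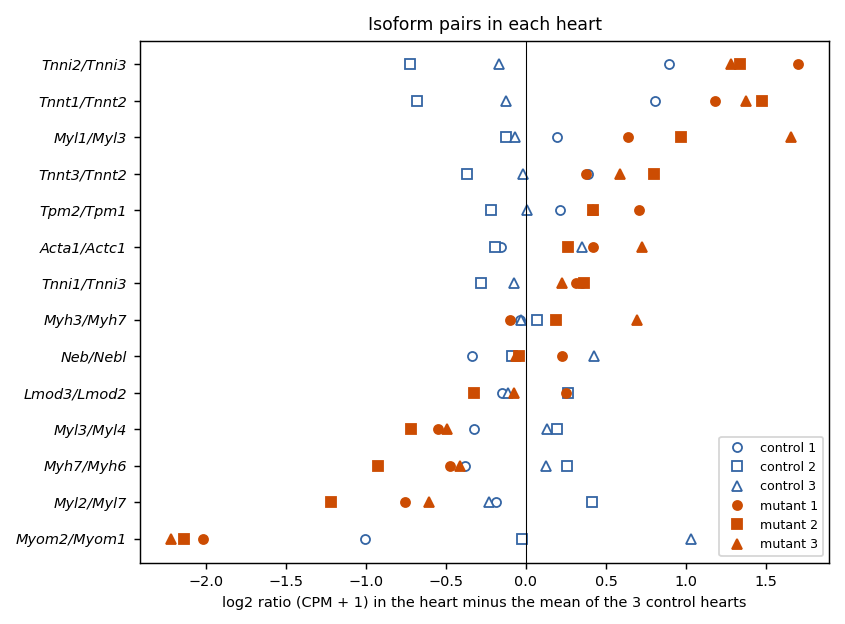
Log2 ratio of 14 isoform pairs in each heart, as the distance from the mean of the 3 control-labelled hearts (symbols as in the plot of members by heart). The 3 mutant-labelled hearts stand apart on the right for Tnni2/Tnni3, Tnnt1/Tnnt2, Myl1/Myl3 and Tpm2/Tpm1 and on the left for Myom2/Myom1 and the ventricular to atrial pairs, with control replicate 1 the nearest control in all but Myl2/Myl7.

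The ventricular to atrial pairs were all lower in mutant-labelled hearts. Myl2/Myl7 was at 3.96, 4.56 and 3.92 among control-labelled hearts and at 3.39, 2.92 and 3.54 in mutant-labelled hearts, a difference of -0.86. Myl3/Myl4 was at 0.93, 1.44 and 1.38 and at 0.70, 0.53 and 0.76, a difference of -0.59. Myh7/Myh6 was at 1.54, 2.18 and 2.05 and at 1.45, 1.004 and 1.51, a difference of -0.60. The groups did not overlap in any of these pairs, and mutant replicate 2 was lowest in all of them. All 3 atrial-type members, Myl4, Myl7 and Myh6, were higher (median log2 fold change 0.48) and all 3 ventricular-type members, Myl2, Myl3 and Myh7, lower (median -0.18), Myh7 with the exception without control replicate 3 given above.

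Chamber markers outside the sarcomere were set beside these pairs. Of 9 atrial markers 6 were higher and 3 lower in mutant-labelled hearts, with a summed level of 329 to 525 CPM in control-labelled and 448 to 527 CPM among mutant-labelled hearts. Nr2f1 and Dkk3 were higher at an unadjusted p under 0.05, and none was lower. Nppa, the atrial natriuretic peptide, which trabecular ventricular muscle of the embryo also makes, was at 182, 128 and 300 CPM and at 187, 280 and 257 CPM, overlapping. Of 7 ventricular markers 5 were higher and 2 lower, with a median log2 fold change of 0.049. They summed to 3422 to 4117 CPM and to 3033 to 3224 CPM, and the groups did not overlap, the sum being mostly Pln and Lbh. At an unadjusted p under 0.05, 2 were higher, Cited1 (log2 fold change 0.79) and Mycn (0.23), and 2 lower, Pln, phospholamban (-0.54, adjusted p = 0.099 from edgeR), and Hey2 (-0.29). By this threshold, the counts for the 9 atrial and for the 7 ventricular markers stand beside 9.48% of all tested genes higher and 9.98% lower. Irx4 had a log2 fold change of 0.049. The part of chamber size or dissection in the isoform ratios was not tested.

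Skeletal muscle itself was nearly absent from the libraries. The 14 skeletal muscle markers summed to 5.38 to 7.44 CPM in control-labelled and 7.13 to 7.90 CPM among mutant-labelled hearts, and 5 of them passed the filter on low counts. The defining factors Myod1, Myf5, Myf6 and Pax7 were at 0 to 0.0940 CPM in every heart, and Myog at 0.374 to 0.870 CPM with overlapping groups. Chrng, Stac3 and Ryr1 were higher in every mutant-labelled heart than in any control, Chrng at 1.63 to 1.70 and at 1.97 to 2.32 CPM, Stac3 at 0.370 to 0.394 and at 0.479 to 0.682 CPM and Ryr1 at 0 to 0.102 and at 0.171 to 0.357 CPM, the last too low to test. Of the 5 tested, all had higher values in mutant-labelled hearts, as had 8509 of all 17125 tested genes, and none of the 5 had an unadjusted p under 0.05. Among the 5, 2 lay above every control, beside 14.3% of all tested genes. Their part in the values of Tnni2, Myl1 and Tnnt1 was not tested.

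Markers of heart muscle and other cells gave the following sums. The 15 cardiomyocyte markers that are not sarcomere genes summed to 4022 to 5115 CPM in control-labelled and to 4014 to 4392 CPM among mutant-labelled hearts, with 5 higher and 10 lower. The endothelial list summed to 1059 to 1305 and to 1161 to 1232 CPM, and the fibroblast and epicardial list to 2301 to 3179 and to 2130 to 2718 CPM. The smooth muscle list summed to 1349 to 1601 and to 1257 to 1471 CPM. These sums overlapped, but a sum weighs abundant genes most. At an unadjusted p under 0.05, 2 of 15 cardiomyocyte, 2 of 10 endothelial, 3 of 10 fibroblast and epicardial and 3 of 7 smooth muscle markers were lower. Beside them, 9.98% of all tested genes were lower. In the same order 1, 0, 1 and 1 were higher, beside 9.48% of all tested genes. The liver list came to at most 2.04 CPM. The erythroid list, mostly globins, was at 9259, 17124 and 39378 CPM in control replicates 1, 2 and 3 and at 6352, 7466 and 11328 CPM among mutant-labelled hearts. Hbb-bs, an adult globin, was lower and Hbb-y, the embryonic globin, higher in all mutant-labelled hearts, with Hbb-y at 454, 42.6 and 155 CPM and at 802, 1201 and 1127 CPM. In both the globin sum and Hbb-y, control replicate 1 was the control closest to the mutant-labelled hearts, and the part of blood content or of the embryos' exact age in the sarcomere values was not tested.

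**Figure D5:**
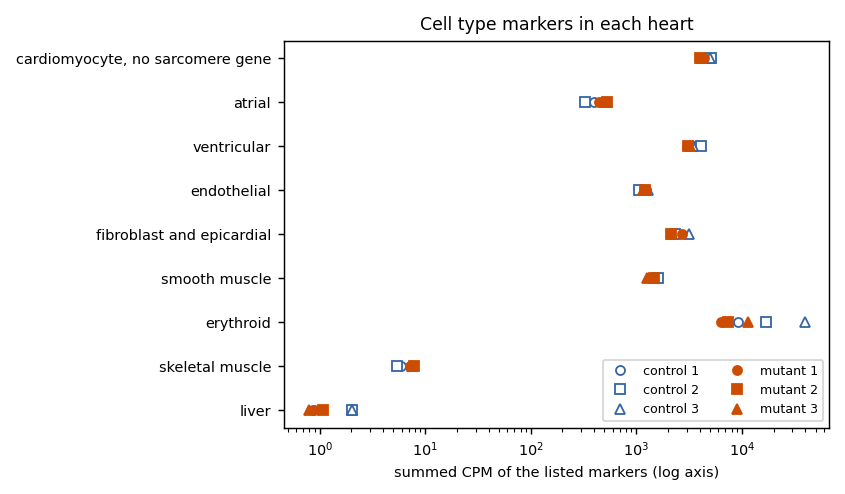
Summed CPM of 9 lists of marker genes in each heart, on a log axis (symbols as in the plot of members by heart). Skeletal muscle markers stay under 8 CPM in every heart, and the erythroid sum spreads from 6352 to 39378 CPM, more than any other list.

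Control replicate 1 stood nearer to the mutant-labelled hearts than the other controls did in the sarcomere genes as well. It fell between the lowest and highest mutant-labelled heart for 17 of 39 members, against 8 for control replicate 2 and 7 for control replicate 3, and was the control nearest to the mutant mean for 27. Without it, edgeR called 9 members at an adjusted p under 0.05, beside 751 of 17290 genes in all (4.34%). Tnnt1 and Tnni2 were then higher, with log2 fold changes of 1.42 and 1.29, and Tnni3 (-0.66), Myom2 (-2.96), Myoz2 (-0.44), Ldb3 (-0.48), Csrp3 (-0.52), Xirp2 (-1.31) and Ckm (-1.96) lower. Leaving out any other heart called no member. Control replicate 1 was singled out by these same values, and leaving out the control nearest to the mutant-labelled hearts widens the difference. The 9 calls are therefore no separate evidence.

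Other genes of the sarcomere and costamere were taken from a list of 48, of which 42 were tested. At an unadjusted p under 0.05, 11 were lower (26.2%, beside 9.98% of all tested genes) and 1 higher (2.38%, beside 9.48%). There were 12 below all control-labelled hearts (28.6%, beside 12.8%) and 2 above them (4.76%, beside 14.3%), and DESeq2 called 8 lower (19.0%, beside 3.43%) and 0 higher (beside 2.67%). The median log2 fold change was -0.11. Of the 8 with the largest log2 fold changes among those with an unadjusted p under 0.05 and a mean of at least 1 CPM, 7 were lower, among them Murc, a caveolar protein of the Z-disc (-2.21), Ckmt2, the mitochondrial creatine kinase (-1.54), Cmya5 (-0.65), Fhl2 (-0.62), Mypn, the Z-disc protein myopalladin (-0.59), and Dmd, dystrophin (-0.44). The other was Mylpf, the fast skeletal regulatory light chain, at 2.26, 2.96 and 2.59 CPM among control-labelled hearts and at 3.46, 4.47 and 3.93 CPM among mutant-labelled hearts (0.60), with no overlap. Ckmt2 was at 9.48, 22.0 and 18.0 CPM and at 5.59, 5.59 and 5.85 CPM, again with control replicate 1 the nearest control. None of the 42 passed an adjusted p of 0.05 in edgeR, and the smallest adjusted p among them was 0.065, for Murc.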

How the data were processed

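RNA of 6 whole hearts, 3 a group, was sequenced by the authors as 76 bp paired-end reads. The authors mapped them with STAR 2.4.2a to GRCm38 (mm10) with the GENCODE vM6 annotation, and the deposited raw counts per gene, made with summarizeOverlaps, were not normalized. The authors' second table holds fold changes and p-values from DESeq2; only its pairing of gene identifiers with symbols was used. How reads overlapping several genes were counted, and whether strand was used, is not given in the sources used here.

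Counts were tested in R 4.3.3 with edgeR 4.0.16 (filterByExpr with a minimum count of 10 and a minimum total of 15, TMM, quasi-likelihood test, condition as the only term, Benjamini-Hochberg adjustment over all 17125 tested genes), and with DESeq2 1.42.0 as an alternative. The SE of a log2 fold change was derived from its F statistic. Isoform ratios are log2 of CPM + 1 and the groups were compared with exact two-sided permutation tests. Gene positions, exon lengths, overlaps and shared stretches of 76 bases came from GENCODE vM21 on GRCm38, and promoter windows from RefSeq on GRCm38.p6. Library totals ran from 28948836 to 89675692 counts, so counting error was small for all but the rarest isoforms. Hearts of a group differed by far more than counting noise (the lowest chi-square per degree of freedom was 20.6), so each counts as 1 replicate.

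Members, lists, pairs and tests were chosen with earlier results of these data known. Members of an isoform pair and those with an unadjusted p under 0.05 were given with each heart's value, and of the other sarcomere genes the 8 with the largest log2 fold change at an unadjusted p under 0.05 and a mean of at least 1 CPM were named, except 1 that is not reported here. The steps were tested on simulated counts. Alternatives were RLE size factors, DESeq2, 2 other filters, robust moderation, an adjusted p of 0.1, the replicate number as a block, TMM computed without the sarcomere genes, a pseudocount of 0.1 CPM for the ratios, and leaving out each heart.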

Additional observations from a re-analysis of the deposited data

How the results depend on the processing

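With 3 hearts a group, spread between hearts limits these results more than depth. At an adjusted p under 0.05, edgeR called 0 members and 0 genes. DESeq2 called 11 members and 1013 genes, edgeR without a filter beyond 1 count 7 members and 603 genes, robust moderation 1 gene and no member, and a threshold of 0.1 gave 4 members and 409 genes. Same-numbered hearts had correlations of deviations of 0.0093, -0.12 and -0.094 over 17125 genes, and control 2 with mutant 3 had 0.13. These values cannot tell whether hearts were paired by litter. The paper reports using littermates as controls, and which hearts shared a litter is not given in the sources used here. With the replicate number as a block, 14 genes and no member were called. RLE, the filter of 1 CPM in 3 hearts and TMM without the sarcomere genes called 0 genes each and turned no member's direction.

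Without 1 heart at a time, the members called ran from 0 to 9 and the genes called from 0 to 751, the highest both without control replicate 1, and the members lower at an unadjusted p under 0.05 from 4 to 15 beside 9. The median log2 fold change of skeletal and fetal isoforms ran from 0.092 to 0.27 and that of shared genes from -0.29 to -0.085. Myh3 passed the filter in 4 of those fits and so entered the first of these medians; over the 13 isoforms tested with all hearts, a restriction added after seeing the data, it ran from 0.12 to 0.27. Members near 0 turned direction. Log2 fold changes ran from -0.23 to 0.043 for Myh7, from -0.14 to 0.028 for Actn2, from -0.11 to 0.036 for Mybpc3, from -0.17 to 0.17 for Tcap, from -0.31 to 0.21 for Neb, from -0.075 to 0.11 for Lmod2, from -0.13 to 0.14 for Lmod3 and from -0.21 to 0.060 for Ankrd1, and the differences of the log2 ratios from -0.13 to 0.25 for Neb/Nebl and from -0.20 to 0.085 for Lmod3/Lmod2. The other 12 ratios kept their direction without any 1 heart, with a pseudocount of 0.1 and with the replicate block. The causes of these shifts were not tested.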

Other observations

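Several troponin genes lie near each other in pairs of a T and an I gene, read in the same direction. Genes outside the list that may lie between them were not looked for. The pairs differed in how their members' values compared. On chromosome 7, Tnnt1 and Tnni3 are 1922 bases apart, and Tnnt1 was higher (log2 fold change 1.06) while Tnni3 was lower (-0.47) in mutant-labelled hearts. On the same chromosome Tnni2 and Tnnt3, both of the fast skeletal type and 54425 bases apart, were both higher (1.004 and 0.55), the second with overlapping groups. On chromosome 1, Tnni1 and Tnnt2, 25364 bases apart, had -0.14 and -0.22, both with overlapping groups. Myh6 and Myh7, 3756 bases apart on chromosome 14, had 0.48 and -0.13. None of these genes passed an adjusted p of 0.05 in edgeR, and distances are from GENCODE vM21 on GRCm38.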
